A study of Arabidopsis thaliana with 6 samples.

Results

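Transposable elements and pseudogenes make up most of the DNA around Arabidopsis centromeres, and further copies lie scattered among the genes of the chromosome arms. The loci described here are 220 such arm loci, each read by 1 probe set, out of 22746 probe sets tested. They are the probe sets that the array annotation assigns to a single gene of RefSeq type pseudogene, a type that in Arabidopsis takes in transposable element genes together with other pseudogenes. Loci numbered AT1G32000 to AT1G46000, AT2G04000 to AT2G16000, AT3G29500 to AT3G44000, AT4G03400 to AT4G09000 and AT5G27500 to AT5G37500 were left out as pericentromeric or, on chromosome 4, knob heterochromatin. AT4G16870, an arm locus outside these ranges, was left out by name. The pericentromeric and knob ranges held a further 702 pseudogene-type probe sets, which serve for comparison. The tables name no element family for the arm loci, so transposon genes and other pseudogenes among them were not separated, and 1 of the 220 carries a symbol of its own (CYTOSLEEPER). Values are relative and hold no level.

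RNA came from unopened flower buds of 2 genotypes with 3 biological replicates each. The ddm1 plants, in inbred generation 6, carry a mutation in DDM1, with no allele named in the labels. The wild type plants are of the Columbia accession (Col), with no inbred generation in their labels, so the loss of DDM1 and the inbreeding history cannot be told apart. All plants were raised on soil in 18 hours of light at 23 °C. The transcript of DDM1 was not analysed here, and the genotypes rest on the labels. Because the values are centred, the tissue could not be checked by marker levels.

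DDM1 is a chromatin remodelling protein that gives DNA methyltransferases access to nucleosomal, histone H1-bound DNA. In its absence DNA methylation is lost from heterochromatin, transposable elements become transcribed and some of them move. An element that lies alone on an arm sits in a gene-rich setting, and its transcription can be read against that of the genes beside it. The chromatin of the arm loci was not measured here.

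In ddm1 buds, 51 of the 220 arm loci were higher than in wild type and 1 was lower (limma, Benjamini-Hochberg adjusted p under 0.05 over all probe sets). Of all probe sets tested, 3.5% were called higher and 5.68% lower, that is 795 and 1291. Without wild type replicate 1, 2 or 3 these counts were 432, 527 and 510 higher and 629, 733 and 775 lower, while 45 arm loci were higher in each case. A rise of at least 2-fold was called at 47 arm loci, or 21.4%, against 1.67% of all probe sets. Among these 47 the median log2 difference of ddm1 minus wild type was 4.55, and 29 of them exceeded 16-fold. Over all 220 loci the median difference was 0.03, against 0.00445 over all probe sets. The class was thus made up of a majority of flat loci and a minority with large rises.

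At all 47 loci, whose choice by call and size favours even arrays, every ddm1 array lay above every wild type array, and the narrowest gap between the groups was 1.00 on the log2 scale. Counting loci with or without a call, 63 of the 220 (28.6%) had all ddm1 arrays above all wild type arrays, compared with 10.4% of all probe sets. In the opposite direction 4 loci had all ddm1 arrays below all wild type arrays, compared with 16.7% of all probe sets. Among the 47, ddm1 replicate 3 was the highest ddm1 array at 22 loci, replicate 1 at 17 and replicate 2 at 8, and the median values of the 3 arrays were 3.57, 3.37 and 3.65 for replicates 1, 2 and 3.

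**Figure D1:**
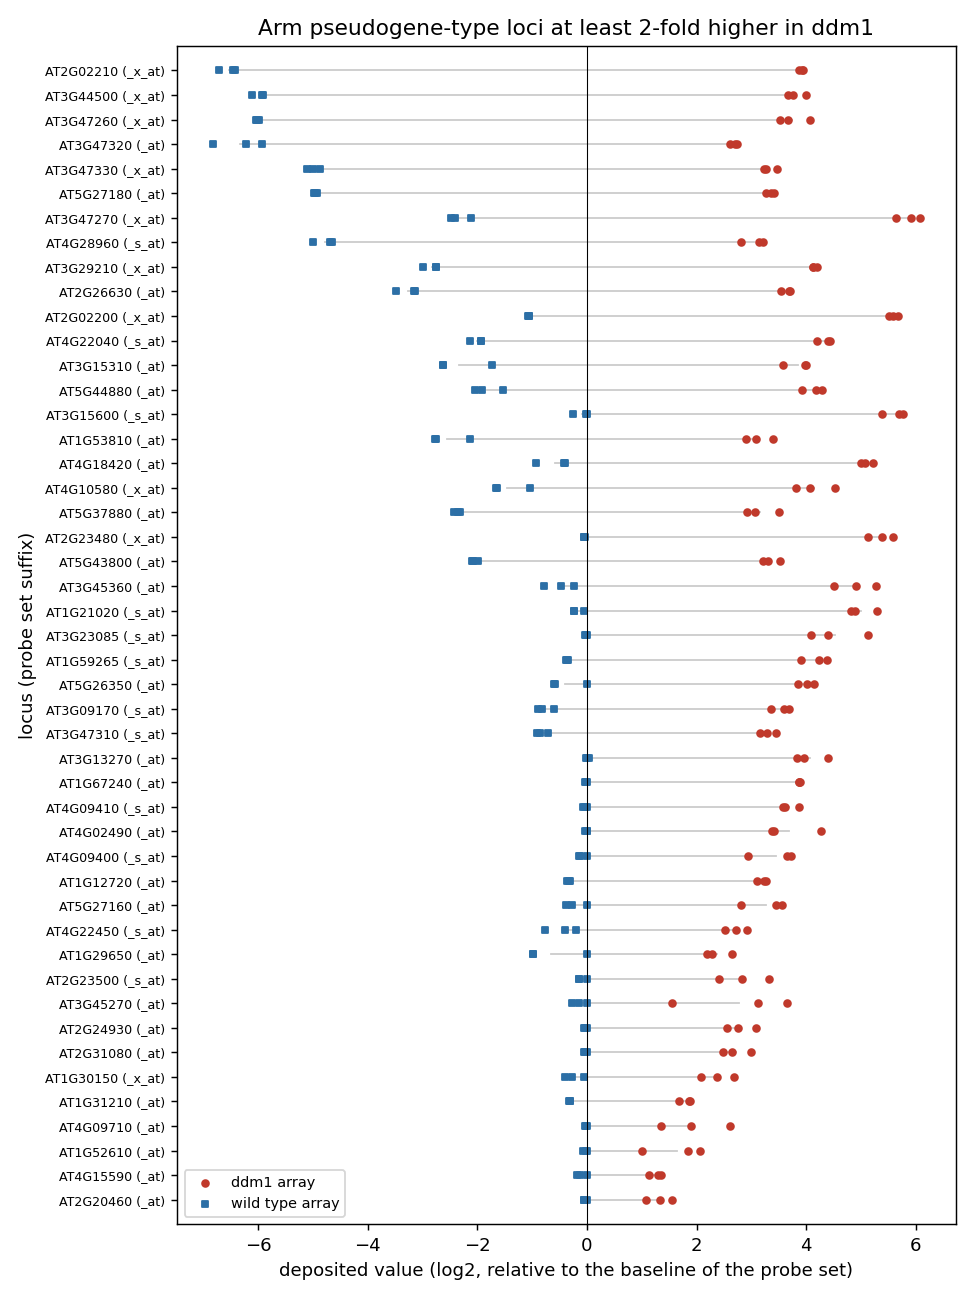
Deposited values (log2, relative to the baseline of each probe set) of the 47 arm loci at least 2-fold higher in ddm1, ordered by the difference. Red points are the 3 ddm1 arrays, blue squares the 3 wild type arrays and grey lines join the means. At every locus all ddm1 arrays lie above all wild type arrays.

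The zero of the scale is a baseline set by the authors for each probe set, and the arrays behind it are not given. All 47 loci had every ddm1 array above this baseline. Wild type lay within 0.5 of it at 25 of the 47 loci, more than 0.5 below it at 22 and more than 2 below it at 15. The centred values do not show whether wild type had any signal above background at these loci. In bulk tissue, RNA in fewer cells and less RNA per cell cannot be told apart either.

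Markers of other cell types also differed between the genotypes. Their lists were drawn up with earlier results of these data known, so the shares below are no test against all probe sets. Measured markers are those with a probe set that the array annotation assigned to that gene alone. Of 11 measured pollen markers out of 18 listed, 6 were lower in ddm1 and 0 higher by limma, with 7 at an unadjusted p under 0.05, compared with 5.68% called lower and 23.1% at an unadjusted p under 0.05 among all probe sets. The mean value of this list was -1.02, -0.85 and -0.81 in ddm1 arrays, against 0.11, 0.07 and 0.01 in wild type arrays. AtVEX1, which encodes a transporter of the vegetative cell of pollen, differed by -3.61 ± 0.36 (SE, adjusted p = 0.00463). Of 3 measured tapetum and pollen wall markers out of 13, 2 were lower and 0 higher, with 3 at an unadjusted p under 0.05. The list's mean was -1.04, -0.66 and -0.79 in ddm1 arrays, against 0.15, 0.33 and 0.17 in wild type arrays. Of 3 green tissue markers 1 was called higher, compared with 3.5% of all probe sets, and 3 had an unadjusted p under 0.05. The called gene was LHCB4.2, an antenna protein gene, at 0.38 ± 0.05 (adjusted p = 0.0141), and without ddm1 replicate 2, wild type replicate 1 or wild type replicate 2 its adjusted p was 0.0509, 0.0576 and 0.0551. LHCB4.1 and RCA differed by 0.35 ± 0.09 and 0.20 ± 0.05 and were not called (adjusted p = 0.0738 and 0.0771). The calls of the pollen genes MGH3 and AGL30 were lost without wild type replicate 2 (adjusted p = 0.0516) and wild type replicate 3 (0.0576). The part that cell composition plays in the rises at the arm loci was not tested.

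Probe sets differ in how specific they are, and the suffix of the name records it. A plain _at probe set was designed for 1 transcript, an _s_at set matches several related transcripts, and an _x_at set holds probes that may cross-hybridise to others. For repeated elements such a value may combine several copies, some of which may lie in the pericentromeres. Of the 173 plain _at probe sets 25 rose at least 2-fold (14.5%, against 1.16% of all plain _at probe sets). For _s_at sets it was 12 of 33 (36.4%, against 7.7%), and for _x_at sets 10 of 14 (71.4%, against 44.4%). The shares over all probe sets include the pseudogene-type sets themselves. Among protein-coding probe sets they were 0.615% for plain _at, 11.3% for _s_at (6 of 53) and 9.38% for _x_at sets (3 of 32). The median difference among the risen arm loci was 3.89 for plain _at, 4.43 for _s_at and 7.60 for _x_at sets. Probe sets that can read several copies thus held the higher shares and medians, and the difference between suffixes was not tested.

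The biggest rises belonged to _x_at sets. AT2G02210 stood at 3.92, 3.87 and 3.94 in ddm1 arrays, against -6.71, -6.45 and -6.42 in wild type arrays, a difference of 10.44 ± 0.08 (SE, n = 3 per genotype, adjusted p = 2.01e-07). AT3G44500 gave 3.99, 3.76 and 3.67 in ddm1, against -6.11, -5.92 and -5.90 in wild type (9.79 ± 0.10, adjusted p = 5.02e-07). AT3G47260 gave 4.06, 3.67 and 3.52 in ddm1, against -6.01, -5.99 and -6.03 in wild type (9.76 ± 0.14, adjusted p = 1.59e-06). These are the 3 largest differences among the arm loci, and in each the 3 arrays of a genotype lay within 0.6 of each other. Among _x_at sets AT3G47330 and AT3G47270 came next, at 8.31 ± 0.09 and 8.21 ± 0.15.

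Among _s_at sets AT4G28960 differed most. Its ddm1 arrays stood at 3.21, 2.82 and 3.14, against -4.99, -4.68 and -4.66 in wild type (7.83 ± 0.14, adjusted p = 3.60e-06). AT4G22040 differed by 6.35 ± 0.09, AT3G15600 by 5.71 ± 0.12, AT1G21020 by 5.17 ± 0.14 and AT3G23085 by 4.55 ± 0.27. At AT3G15600 the wild type arrays lay at -0.02, 0.00 and -0.26, close to the baseline, whereas at AT4G22040 they lay at -2.14, -1.94 and -1.93.

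Plain _at sets, the most specific kind, also held large rises. Of their 25 rises 12 exceeded 16-fold, against 9 of 10 for _x_at sets. AT3G47320 on chromosome 3 stood at 2.74, 2.61 and 2.70 in ddm1 arrays, against -6.83, -6.23 and -5.94 in wild type arrays (9.01 ± 0.23, adjusted p = 1.42e-05). AT5G27180, the leading plain set of chromosome 5, stood at 3.27, 3.37 and 3.42 in ddm1, against -4.98, -4.96 and -4.93 in wild type (8.31 ± 0.05, adjusted p = 5.61e-08). AT2G26630, leading on chromosome 2, gave 3.71, 3.54 and 3.69 in ddm1, against -3.49, -3.15 and -3.13 in wild type (6.90 ± 0.11, adjusted p = 2.31e-06). In all 3 the wild type arrays were low and close together relative to the difference. AT1G53810, leading on chromosome 1, gave 2.90, 3.08 and 3.40 in ddm1, against -2.78, -2.75 and -2.13 in wild type (5.68 ± 0.22, adjusted p = 0.000101). AT4G18420, leading on chromosome 4, gave 5.0, 5.07 and 5.21 in ddm1, against -0.42, -0.93 and -0.40 in wild type (5.68 ± 0.16, adjusted p = 2.18e-05). The other large plain rises were AT3G15310 (6.18 ± 0.28), AT5G44880 (5.96 ± 0.16), AT5G37880 (5.52 ± 0.15), AT5G43800 (5.41 ± 0.09) and AT3G45360 (5.40 ± 0.23). None of these 10 loci carries a symbol in RefSeq.

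The arm loci can be set beside the loci of the same type inside the pericentromeric and knob ranges. Of those 702, 165 rose at least 2-fold (23.5%), against the 21.4% on the arms. Within plain _at sets the shares were 14.5% on the arms and 15.2% in the ranges, within _s_at sets 36.4% and 48.7%, and within _x_at sets 71.4% and 65.6%. The median rise was 4.55 on the arms and 4.80 in the ranges, and for plain sets 3.89 and 3.68. The largest rise was 10.44 on the arms and 12.15 in the ranges. These shares are descriptions, and the difference between arms and ranges was not tested.

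**Figure D2:**
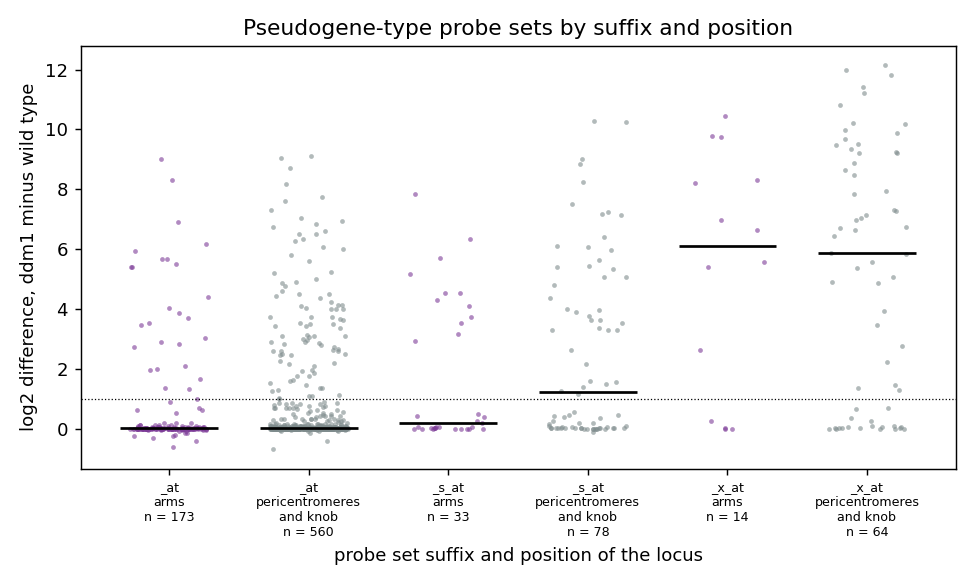
Log2 difference of ddm1 minus wild type for each pseudogene-type probe set, by suffix, with arm loci left of pericentromeric and knob loci. Black bars are medians and the dotted line marks 2-fold. Plain _at sets cluster at 0 in both positions, and the medians of _x_at sets are 6.12 on the arms and 5.86 in the ranges.

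Every chromosome contributed. At least 2-fold higher were 9 of 49 loci on chromosome 1 (18.4%), 8 of 50 on chromosome 2 (16%), 14 of 50 on chromosome 3 (28%), 10 of 46 on chromosome 4 (21.7%) and 6 of 25 on chromosome 5 (24%). The mix of probe sets differs between chromosomes, since chromosome 5 holds plain _at sets only and chromosome 3 holds 9 _s_at and 6 _x_at sets. Within plain sets the counts were 6 of 39, 4 of 43, 5 of 35, 4 of 31 and 6 of 25 for chromosomes 1 to 5. Of the 14 rises on chromosome 3, 9 were read by _s_at or _x_at sets. Differences over 16-fold were called at 3, 4, 13, 4 and 5 loci of chromosomes 1 to 5. The differences between chromosomes were not tested.

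Rises were found at all distances from the heterochromatic ranges. Distance was counted as the number of protein-coding loci between a locus and the nearest end of the range on its chromosome. Within 200 such loci, 17 of 68 arm loci rose at least 2-fold (25%), from there to 1000 loci it was 16 of 79 (20.3%), and beyond 1000 loci 14 of 73 (19.2%). For plain sets the counts were 9 of 50, 9 of 65 and 7 of 58. The median rise was 4.40, 4.98 and 4.85 in the 3 distance classes. The _s_at set of AT3G09170, with 2282 protein-coding loci between it and its range, differed by 4.32 ± 0.12. That of AT4G28960, with 2241, differed by 7.83. Such sets may also read copies elsewhere. The plain sets of AT1G67240, with 1960, and AT2G26630, with 1106, differed by 3.89 ± 0.03 and 6.90 ± 0.11.

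The limits of the ranges were set by locus number, and loci on both sides of them rose or stayed flat. Just outside and just inside the start of the range on chromosome 4, AT4G02490 differed by 3.70 and AT4G03530 by 3.30. At the end of the range on chromosome 5, AT5G37880 outside it differed by 5.52 and AT5G37330 inside it by 0.06. At the start of the range on chromosome 2 the order was the opposite, with AT2G03540 outside at 0.03 and the _x_at set of AT2G04000 inside at 9.99. Over the 10 ends, 3 of the nearest loci outside and 4 of the nearest inside rose at least 2-fold. When each range was widened by 2000 locus numbers on both sides, 150 arm loci were left and 30 of them rose at least 2-fold, or 20%.

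**Figure D3:**
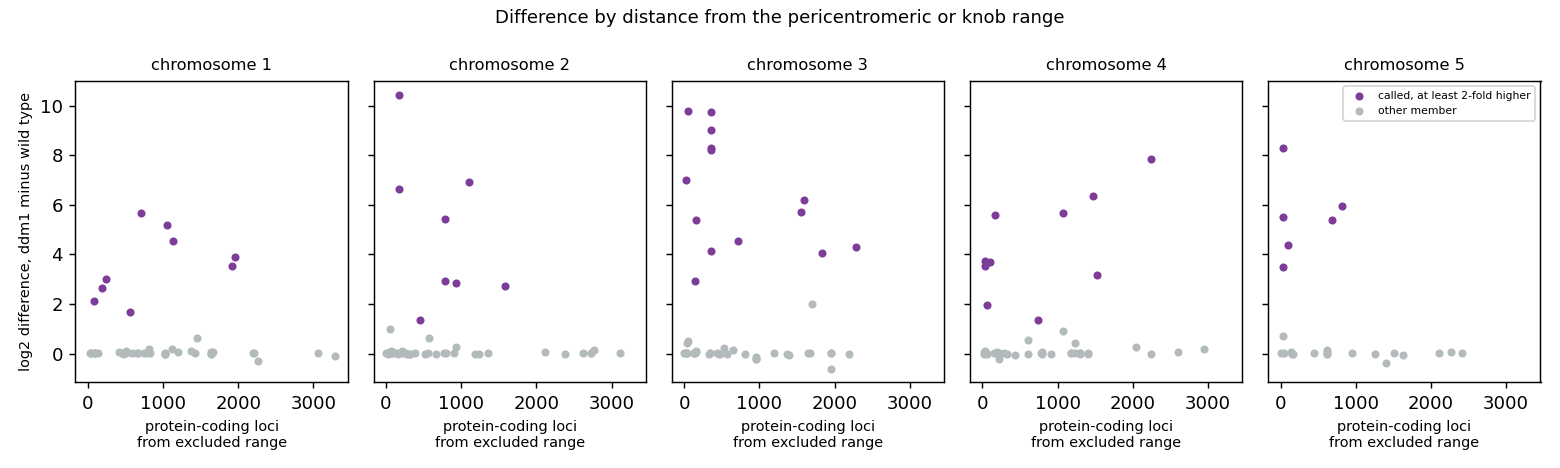
Log2 difference of ddm1 minus wild type (y axis) against the number of protein-coding loci between the arm locus and the pericentromeric or knob range (x axis), by chromosome. Purple points are the 47 loci called at least 2-fold higher and grey points the other 173. Purple points occur at short and long distances, the largest being 10.44 on chromosome 2.

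The share of risen loci was highest where many pseudogene-type loci lay around the arm locus, a difference that was not tested. Of the 24 nearest loci in RefSeq order, 0 or 1 were pseudogene-type for 122 arm loci, and 24 of these rose at least 2-fold (19.7%). With 2 to 5 such neighbours 15 of 81 rose (18.5%), and with 6 or more 8 of 17 (47.1%). In the densest class 6 of the 8 rises came from _s_at and _x_at sets. Among plain sets the counts were 14 of 101, 9 of 63 and 2 of 9. Most arm loci, risen or not, lay outside the densest class, and that class holds few plain sets.

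Some arm loci are close neighbours. Taking loci with at most 2 others between them as a run, the 220 loci formed 189 runs, of which 25 held 2 or more measured loci. Of these 25, 4 rose at least 2-fold throughout, 7 held both a risen and a remaining locus, and the other 14 held no rise of that size. Counting runs in place of loci, 40 of 189 held a rise of at least 2-fold (21.2%).

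The densest stretch of rises lay on chromosome 3 between AT3G47260 and AT3G47330. All 5 measured loci in it rose, 3 of them read by _x_at sets, 1 by an _s_at set (AT3G47310) and 1 by a plain set (AT3G47320). AT3G47270 stood at 6.08, 5.91 and 5.65 in ddm1 arrays, against -2.41, -2.48 and -2.11 in wild type arrays, and AT3G47310 at 3.29, 3.16 and 3.45 in ddm1, against -0.92, -0.85 and -0.70 in wild type. Immediately before this stretch, the plain sets of AT3G47230 and AT3G47240 were flat, differing by 0.02 ± 0.03 each. The protein-coding AT3G47250 lies between the flat and the risen loci. It stood at 0.93, 0.85 and 0.90 in ddm1 arrays, against 0.00, 0.29 and -0.22 in wild type (0.87 ± 0.13, adjusted p = 0.0179). Omitting any 1 of 4 arrays ended this call (without wild type replicate 1, adjusted p = 0.0714, and without ddm1 replicate 1, 2 or 3, adjusted p = 0.0594, 0.0527 and 0.0636).

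Elsewhere some neighbouring loci differed sharply, and others rose together. AT3G29210, an _x_at set, rose by 6.98 ± 0.08, and the plain set of AT3G29220 beside it differed by 0.02 ± 0.03. AT3G45360 rose by 5.40 and AT3G45380 differed by 0.12 ± 0.09. On chromosome 4, AT4G18420 rose by 5.68 and AT4G18410 by 0.91 ± 0.16 (adjusted p = 0.0312), a call that was lost without any 1 of 5 of the arrays (adjusted p = 0.0558 to 0.105). On chromosome 5, AT5G27180 rose by 8.31 and AT5G27160 by 3.49 ± 0.22, whereas AT5G27190 differed by 0.70 ± 0.35 and was not called. The 2 _x_at sets of AT2G02200 and AT2G02210 rose by 6.65 ± 0.05 and 10.44. AT2G23480 (_x_at) stood at 5.58, 5.38 and 5.13 in ddm1, against -0.05, -0.05 and -0.04 in wild type (5.41 ± 0.12, adjusted p = 7.48e-06). Near it AT2G23500 (_s_at) stood at 2.84, 2.41 and 3.31 in ddm1, against -0.14, -0.15 and 0.00 in wild type (2.95 ± 0.23, adjusted p = 0.00175).

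**Figure D4:**
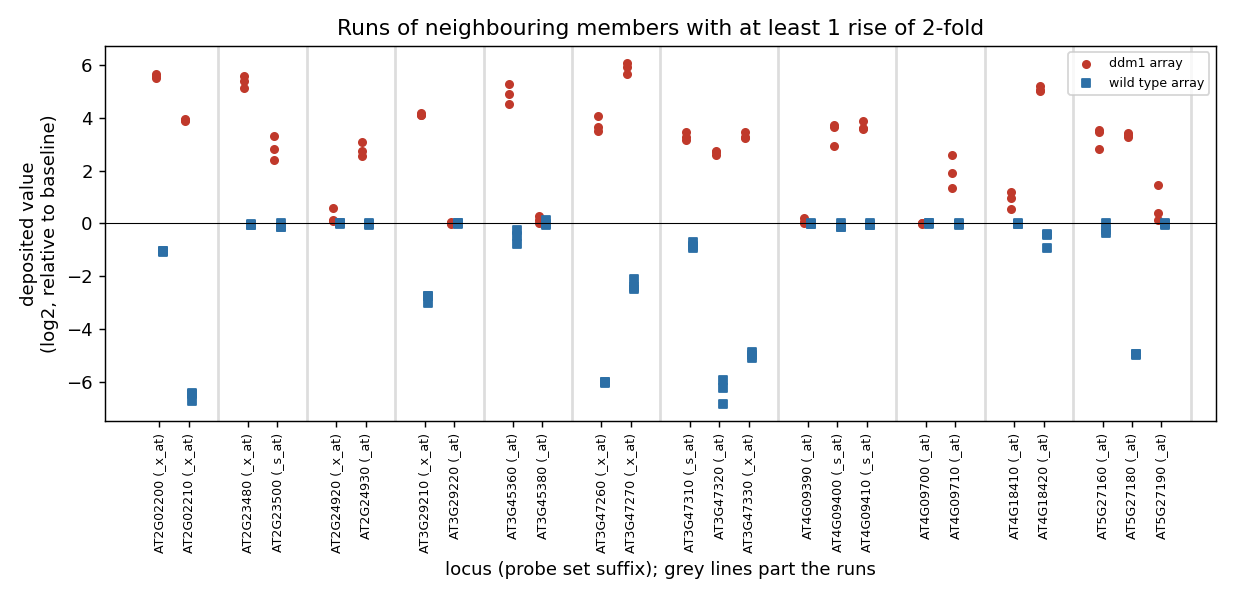
Deposited values (log2, relative to baseline) in the 11 runs of neighbouring arm loci that hold a rise of at least 2-fold, with ddm1 arrays in red left of wild type arrays in blue. Grey lines part the runs. AT3G47310, AT3G47320 and AT3G47330 all rose, and AT3G29220 lay at 0 beside the risen AT3G29210.

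At some loci the 3 ddm1 arrays were far from equal. The median SD among ddm1 arrays was 0.219 for the 47 loci, and it exceeded the wild type SD at 34 of them. AT3G45270 was the least even, with 1.56, 3.12 and 3.65 in ddm1 arrays, against -0.15, -0.27 and 0.00 in wild type (2.91 ± 0.54, SD in ddm1 1.09, adjusted p = 0.0339). AT4G09710 gave 1.91, 2.60 and 1.35 in ddm1, against -0.04, 0.00 and -0.02 in wild type (1.97 ± 0.31, adjusted p = 0.0211). AT1G52610 gave 1.84, 1.00 and 2.06 in ddm1, against -0.01, -0.07 and 0.00 in wild type (1.66 ± 0.28, adjusted p = 0.0245). In all 3 the groups were apart although the ddm1 arrays differed from each other by more than 1 on the log2 scale. AT3G45270 lost its call without ddm1 replicate 2 or 3 or any 1 wild type array (adjusted p = 0.0722 to 0.111), AT4G09710 without ddm1 replicate 1 or any 1 wild type array (0.0632 to 0.0791), and AT1G52610 without ddm1 replicate 1 or 3 or any 1 wild type array (0.0589 to 0.0867). AT3G23085 was also uneven, with 5.13, 4.08 and 4.40 in ddm1, and kept its call whichever array was omitted. At the even end, AT1G67240 stood at 3.87, 3.89 and 3.88 in ddm1, against -0.03, -0.01 and 0.00 in wild type.

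The 168 arm loci that were not called were mostly flat. At 141 of the 220 loci the difference was within 0.1 on the log2 scale, and 136 of the 168 spanned less than 0.25 over all 6 arrays. Without a level, a flat locus cannot be told from one below the array's detection in both genotypes. The largest difference without a call was that of AT3G60170, with 2.30, 0.84 and 2.80 in ddm1, against -0.03, -0.01 and 0.00 in wild type (1.99 ± 0.51, adjusted p = 0.0806). Its groups did not overlap, and without ddm1 replicate 2 it was called (2.56, adjusted p = 0.00251). AT5G27190 and AT2G21460 differed by 0.70 ± 0.35 and 0.64 ± 0.22 (adjusted p = 0.307 and 0.168). Without ddm1 replicate 2 the difference of AT5G27190 was 0.31, and without ddm1 replicate 1 that of AT2G21460 was 0.39. AT3G62520 differed by -0.60 ± 0.24 (adjusted p = 0.224). CYTOSLEEPER (AT1G15300) differed by 0.01 ± 0.15. Just under the 2-fold limit, AT2G16670 was called at 1.00 ± 0.06 (1.995-fold).

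Among the 220 arm loci, the 1 called lower was AT5G50315. It stood at -0.04, 0.00 and -0.07 in ddm1 arrays, against 0.41, 0.33 and 0.28 in wild type arrays (-0.38 ± 0.04, adjusted p = 0.00813). The groups did not overlap, and the change was 1.30-fold. None of the 220 was called at least 2-fold lower by limma, compared with 1.72% of all probe sets. AT4G16870, an arm locus left out by name with earlier results of these data known, is not counted here. The counts of lower loci therefore depend on that choice. At an unadjusted p under 0.05, 5 of the 220 were lower, compared with 14.6% of all probe sets.

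The genes beside the arm loci were examined for changes of their own. For each locus the next protein-coding gene on either side was taken where it lay within 2 loci. For 24 of the 47 risen loci such a neighbour had a probe set that the array annotation assigned to it alone. Of these 28 neighbouring probe sets, 1 was higher in ddm1 (3.57%, against 2.23% of all protein-coding probe sets) and 1 was lower (3.57%, against 5.51%). In 25 of the 28 the difference was within 0.5 on the log2 scale, and their median was -0.01. None was called at least 2-fold higher, as 0.683% of all protein-coding probe sets were. Beside the loci that had not risen 2-fold, 5 of 118 neighbours were higher (4.24%) and 10 were lower (8.47%), and 3 probe sets lay beside loci of both kinds. The shares beside risen loci rest on single probe sets and lie near those of protein-coding genes at large.

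The neighbour that was higher beside a risen locus was AT3G47250, described above. The lower one was SDT, encoding a spermidine disinapoyl transferase, which follows AT2G23500. SDT stood at -1.07, -1.51 and -0.73 in ddm1 arrays, against 0.27, 0.00 and 0.01 in wild type arrays (-1.20 ± 0.21, adjusted p = 0.0279). Its call was lost without ddm1 replicate 1 or any 1 wild type array (adjusted p = 0.0732 to 0.0965). The largest change of any neighbour lay beside a locus that did not rise. AT1G20400, the protein-coding gene after AT1G20390, stood at 3.63, 3.78 and 3.78 in ddm1, against -2.19, -2.21 and -2.84 in wild type (6.14 ± 0.19, adjusted p = 3.59e-05), whereas AT1G20390 itself differed by 0.20. AT1G52000, beside the uncalled AT1G52010, was lower by -2.73 ± 0.23 on the log2 scale (adjusted p = 0.00219). AT1G62450 was lower by -1.86 ± 0.10 (adjusted p = 0.000444). Next to it, AT1G62460 was called higher at 0.65 ± 0.13 (adjusted p = 0.0379). The call of AT1G62460 was lost without any 1 of 5 arrays (0.0548 to 0.112). AT3G29110, close to AT3G29120, was higher by 1.56 ± 0.12 (adjusted p = 0.00155). AT3G29120 itself was called higher at 0.42, also lost without any 1 of 5 arrays (0.0547 to 0.0846). AT1G64405, before the flat AT1G64410, was higher by 1.19 ± 0.24 (adjusted p = 0.0409), a call that ended without any 1 array except wild type replicate 1 (adjusted p = 0.0704 to 0.114).

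**Figure D5:**
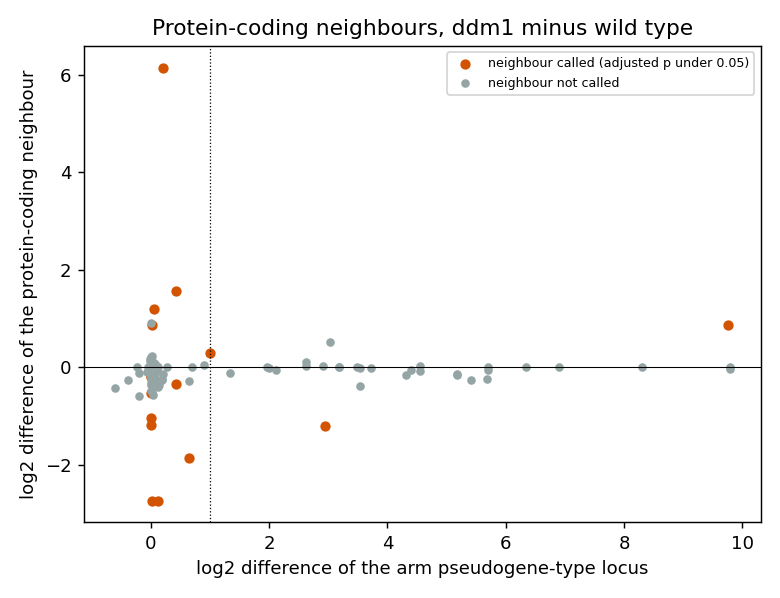
Log2 difference of the protein-coding neighbour (y axis) against that of the arm locus (x axis), both ddm1 minus wild type. Orange points are neighbours called at adjusted p under 0.05, grey points are not called, and the dotted line marks 2-fold for the arm locus. Most neighbours of risen loci lie near 0, and the neighbour at 6.14 belongs to a locus that did not rise.

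Few genes of the silencing machinery had a probe set that the array annotation assigned to a single gene. The others may be read by probe sets that it left unnamed or gave several genes, which were not examined. Some listed genes were known from earlier results of these data, so the shares are no test. Of 34 listed genes for DNA methylation, histone modification and small RNA silencing, 5 were measured by 7 probe sets, of which 0 were higher and 2 lower by limma, the same 2 being the ones at an unadjusted p under 0.05. Among all probe sets 5.68% were lower and 23.1% had such a p. Both lower genes encode linker histone H1. AT2G30620 (H1.2) differed by -0.35 ± 0.05 (adjusted p = 0.0149) and AT1G06760 (H1.1) by -0.18 ± 0.04 (adjusted p = 0.0492). The call of H1.1 was lost whichever array was omitted (adjusted p = 0.0871 to 0.139), and that of H1.2 without ddm1 replicate 2, wild type replicate 1 or wild type replicate 3 (0.0528, 0.0638 and 0.0589). The DNA demethylase gene DME had 3 probe sets at -0.06, 0.01 and 0.15, and AGO7 and SE, of small RNA pathways, differed by 0.28 ± 0.12 and -0.13 ± 0.10. None of these was called.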

How the data were processed

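Amplified, biotin-labelled RNA from the buds was read on 1-colour arrays, according to the labels. Per the submitters' processing notes the authors used GCRMA, of unstated version, and the deposited values are log2. They are centred per probe set on an unstated baseline, and base 2 was inferred from GCRMA and the range of -10 to 8.57. Centring keeps differences between arrays and removes levels, and differences against a dim group may be understated by GCRMA.

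Without the 64 controls, 22746 probe sets were fitted with lmFit and eBayes of limma 3.58.1 (R 4.3.3), genotype being the only term, with two-sided p-values adjusted by Benjamini-Hochberg over all of them. The fit was tested on simulated data. Python 3.11.15, pandas 2.3.3, numpy 2.4.6 and matplotlib 3.10.9 were used for counts and figures. The array annotation gave 13513 probe sets a single gene, of which 13436 were matched by gene number to RefSeq (TAIR10.1), 503 several genes and 8730 none. Only names, types and the order of loci were taken from RefSeq, since no source used here names the array's build, and no sequences were used.

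The loci and the gene lists were chosen with earlier results of these data known. Named were the 10 largest plain _at, 5 largest _s_at and 5 largest _x_at rises among loci called at least 2-fold with the groups apart, the leading plain set of each chromosome, called lower loci, the 4 called loci with the largest SD in ddm1, the 4 largest differences not called, AT2G23480 and AT2G23500 from a list of loci, and, by size, up to 6 called neighbours and 6 called silencing genes. Further loci and cell type markers were named after their values were seen, to describe runs, range ends and extremes. The number of arrays limits the precision. The p-values rest on the spread between the 3 replicates of each genotype, moderated by the variance over all probe sets.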

Additional observations from a re-analysis of the deposited data

How the results depend on the processing

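Of 360 values for the 30 loci named by the rule, each under 12 alternative fits, 332 stayed on the same side of the threshold. A further 24 no longer passed it, 4 newly passed it and 0 changed direction. Most of these loci were named for the size of their rise, which favours an unchanged call. The losses fell on AT3G45270, AT1G52610 and AT4G09710, apart from 1 at AT5G50315. The counts of higher loci (51) and of those at least 2-fold higher (47) fell to 32 and 30 with the excluded ranges widened, and to 28 and 25 with plain _at probe sets only, both of which leave fewer loci. The count of lower loci (1) was 4 with array weights, where the cause was not tested. These weights were 0.38, 5.59 and 0.32 for ddm1 replicates 1, 2 and 3, and 0.97, 1.84 and 0.83 for the wild type replicates. The ddm1 side of that fit thus rested mostly on replicate 2. Against a 1.5-fold change, limma's treat gave 0 lower loci, with 0 at an unadjusted p under 0.05. Leaving out 1 array gave 45 to 51 higher, 44 to 49 at least 2-fold higher and 1 to 1 lower loci. With 1 locus per run, chosen after seeing the data, 40 were higher and 36 at least 2-fold higher. The trended prior variance and any filter on level were not run, because the values carry no level. A robust prior variance, also chosen after seeing the data, gave 51 and 47.

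The labels do not state whether equal replicate numbers share an origin. The deviations of arrays with the same number correlated at 0.0752, 0.0900 and 0.0159, and those with different numbers at -0.0907 to 0.0229. With 3 arrays per genotype these values cannot decide whether arrays share a batch. With a replicate block 45 loci were higher, 44 at least 2-fold higher and 1 lower, while the whole array gave 433 higher and 553 lower probe sets, against 795 and 1291 without it. Array weights gave 2185 and 3597, no variance moderation 373 and 429, and the 1.5-fold test 282 and 213, so their balance turned in that test. Signal over background is unknown.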
